A study of Bos taurus with 6 samples.

Results

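The small RNA table of this study holds 527 rows of the type piRNA among its 2213 rows, and these 527 predicted piRNAs are described here. They were taken by that type label alone, with no use of their counts. Each row is 1 predicted small RNA sequence, named novel_pir with a number, and its description gives a repeat family, a strand and a chromosome interval. The letters of the predicted RNAs are not used here, so their length and base composition were not analysed here.

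The libraries came from cultured bovine fat cells of Holstein cattle at passage 4 to 6. The 3 preadipocyte libraries are of fat cell precursors, kept in F12/DMEM medium to which 10% fetal bovine serum and 1% antibiotics had been added. The 3 adipocyte libraries are of such cells that had been differentiated, by a mix of rosiglitazone, IBMX, dexamethasone and insulin. The labels do not say whether replicates were separate animals or cultures, so p-values measure the spread between these libraries, which may be technical.

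PIWI-interacting RNAs (piRNAs) are small RNAs, somewhat longer than microRNAs (miRNAs), that are bound by PIWI proteins of the Argonaute family. They are best known from the germ line of animals, where they guide the silencing of transposons. Many derive from transposon sequence or from genomic clusters rich in it. In somatic cells PIWI proteins are mostly low or absent, and small RNAs that resemble piRNAs by sequence there need not be bound by them. The table holds no mRNA, so PIWI genes were not analysed here.

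The smallest count above 0 in any predicted piRNA row was 10, as it was in the 108 predicted miRNA rows, whereas known miRNA and Rfam rows went down to 1. A count of 0 in a predicted piRNA row may therefore stand for any count below 10. Detection here means a listed count, and no fold change is given on the fitted scale for rows at 0 throughout a group.

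Library totals in the table ran from 19292757 to 25801117 reads. Preadipocyte replicate 3 stood apart from the other preadipocyte libraries: the 4 genome-feature rows (exon, intron, repeat, intergenic) held 5.29% of its reads, against 18.5% and 18.9% in preadipocyte replicates 1 and 2 and 8.21% to 12.0% in adipocytes. The 4 miRNAs listed as adipocyte-associated (miR-148a, miR-33b, miR-378 and miR-103) summed to 4350 to 8483 CPM of the whole table (counts scaled to the usual common total) in adipocytes and 1209 to 2373 in preadipocytes. The 5 mesenchymal miRNAs made up more than any other list, at 536828 to 629416 CPM of the whole table in adipocytes and 603235 to 721083 in preadipocytes. That sum was mostly miR-21-5p, with 9622712 to 14162416 reads in adipocytes and 11454445 to 17868023 in preadipocytes. Of the same list, miR-199a-3p had 125705 to 156879 reads in adipocytes and 124 to 345 in preadipocytes, and miR-100 had 82310 to 102873 and 19999 to 38891. The groups overlapped for miR-143, with 394299 to 538194 reads in adipocytes and 266773 to 614597 in preadipocytes. They also overlapped for miR-145, with 17957 to 39284 in adipocytes and 27009 to 82989 in preadipocytes. Blood (4 miRNAs), epithelial (4) and skeletal muscle (3) lists stayed at 0.214 to 33.0 CPM of the whole table in every library, and endothelial miR-126-3p at 35.2 to 283. The highest value of miR-126-3p was in preadipocyte replicate 3, with 7294 reads, against 1645 and 1685 in preadipocyte replicates 1 and 2 and 836 to 1347 in adipocytes. Of the germ cell and pluripotency list, 6 of 7 miRNAs were found, and they summed to 0.603 to 1.04 CPM of the whole table in adipocytes and 0.986 to 14.5 in preadipocytes. The highest value of that list was in preadipocyte replicate 3, with 175 reads of miR-302d and 162 of miR-302a, where the germ cell miRNA miR-202 had 1 read. The part of these lists in the piRNA counts was not tested.

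Predicted piRNAs were a minor share of the small RNA in every library. Their reads numbered 35747, 48164 and 35511 in replicates 1, 2 and 3 of adipocytes, against 67118, 64751 and 30798 in those of preadipocytes. As shares of the table these were 0.185%, 0.242% and 0.150% in adipocytes and 0.288%, 0.332% and 0.119% in preadipocytes. Preadipocyte replicate 3 had the lowest share of the 6 and its sister libraries the highest, so the groups overlapped. The means were 0.192% ± 0.0465 and 0.246% ± 0.112 (SD, n = 3 each), with a two-sided exact permutation p of 0.5, where 3 against 3 cannot go below 0.1. In bulk RNA, fewer cells of a type and less RNA per cell cannot be told apart.

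The piRNA share moved together with the reads counted by genome feature. Over the 6 libraries it rose with the exon share (Pearson's r 0.982, Spearman's rho 1), the repeat share (0.968 and 1), the intron share (0.957 and 0.943) and the intergenic share (0.948 and 0.943). The exact permutation p-values of r were 0.00278 for exon and repeat reads, 0.0111 for intron reads and 0.00556 for intergenic reads. Adjusted over these 4 relations by Benjamini-Hochberg (BH) they were 0.00556, 0.00556, 0.0111 and 0.00741, and the exact p-values of rho were 0.00278 for exon and repeat and 0.0167 for intron and intergenic reads, or 0.00556 and 0.0167 adjusted.

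Without the 2 libraries farthest from the median of each feature, r was 0.992 for exon, 0.979 for repeat, 0.9997 for intron and 0.848 for intergenic reads. With 4 libraries the exact p cannot go below 0.0833. It was 0.0833 for the first 3 and 0.167 for intergenic reads. All these values are shares of the same library totals. Within adipocytes the order of the libraries by piRNA share (replicate 2, then 1, then 3) was also their order by exon, intron and repeat share. Within preadipocytes the order by piRNA share (replicate 2, then 1, then 3) was that by exon, repeat and intergenic share. Ribosomal RNA, whose fragments are a sign of RNA breakdown when abundant, took 0.755% to 0.800% of the table in adipocytes and 1.48%, 1.65% and 0.474% in preadipocyte replicates 1, 2 and 3. Transfer RNA took 0.0782% to 0.147% in adipocytes and 0.221%, 0.296% and 0.0847% in the preadipocyte replicates in that order. The part of either in the piRNA share was not tested.

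**Figure D1:**
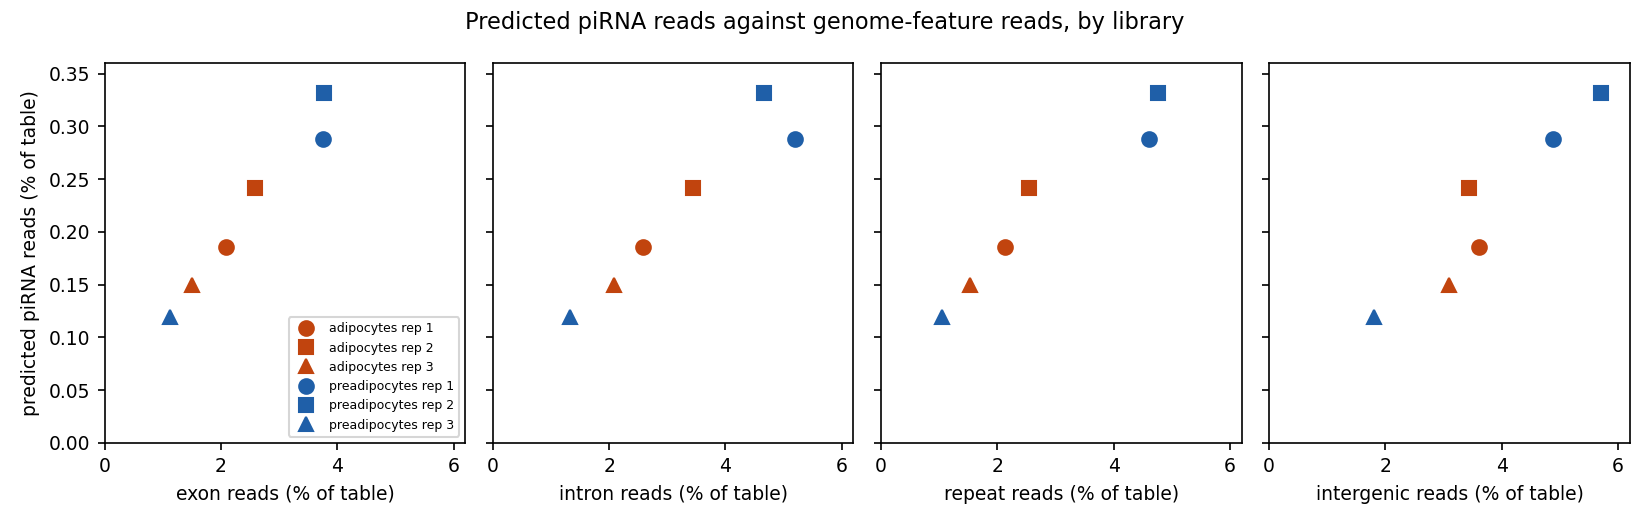
Share of table reads in predicted piRNA rows (vertical axis, %) against that in each genome-feature row (horizontal axes, %), 1 point per library. Preadipocyte replicates 1 and 2 sit at the top of each panel, at 0.288% and 0.332%, and preadipocyte replicate 3 at the bottom, at 0.119%.

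Set against these reads, the piRNA rows varied less. There were 17.8, 20.1 and 18.2 piRNA reads per 1000 genome-feature reads in adipocytes and 15.6, 17.6 and 22.6 in preadipocytes (means 18.7 ± 1.23 and 18.6 ± 3.59, exact permutation p = 0.9, n = 3 each). Per 1000 reads of the repeat row there were 86.9, 95.2 and 97.4 in adipocytes and 62.4, 69.8 and 114 in preadipocytes (n = 3 each, exact permutation p = 0.5). The predicted miRNAs, subject to the same lower limit on counts, took 0.0215% to 0.0453% of the table in adipocytes and 0.0150% to 0.0414% in preadipocytes. There were 5.20 to 6.95 piRNA reads per predicted miRNA read in adipocytes and 7.49 to 8.01 in preadipocytes, ranges that did not overlap (exact permutation p = 0.1, the smallest possible, n = 3 each).

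Detection was patchy. A count was listed for 264, 291 and 246 of the 527 rows in adipocyte replicates 1, 2 and 3, and for 353, 320 and 199 rows in preadipocyte replicates 1, 2 and 3 (means 267 ± 22.6 and 291 ± 81.1, exact permutation p = 0.7, n = 3 each). Preadipocyte replicate 3 listed the fewest rows and the other preadipocyte libraries the most. In 128 rows (24.3%) a count was listed in all 6 libraries, and these rows held 90.8% of all piRNA reads. In 152 rows (28.8%) a count was listed in 1 library only, with 0.740% of the reads and a median highest count of 12. Predicted miRNAs were as scattered, with 23.1% of rows in all 6 libraries and 28.7% in 1, whereas 63.8% of known miRNA rows and 44.5% of Rfam rows had reads in all 6. Those 2 classes are listed down to a count of 1, so the shares are not on an equal footing.

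Rows missing from some libraries often followed single libraries. Preadipocyte replicates 1 and 2 shared 64 rows that no other library listed, and a further 49 and 39 rows were listed only in the one or the other. Preadipocyte replicate 3 was the only library to list 8 rows. The reverse pattern, a row listed everywhere but in preadipocyte replicate 3, was found for 17 rows, against 0 to 8 rows for any other library. All 3 adipocyte libraries listed 14 rows (2.66% of all piRNA rows) that no preadipocyte library did. All 3 preadipocyte libraries listed 7 rows (1.33%) that no adipocyte library did. The same shares were not computed for other row classes, so these counts are not set against a background.

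**Figure D2:**
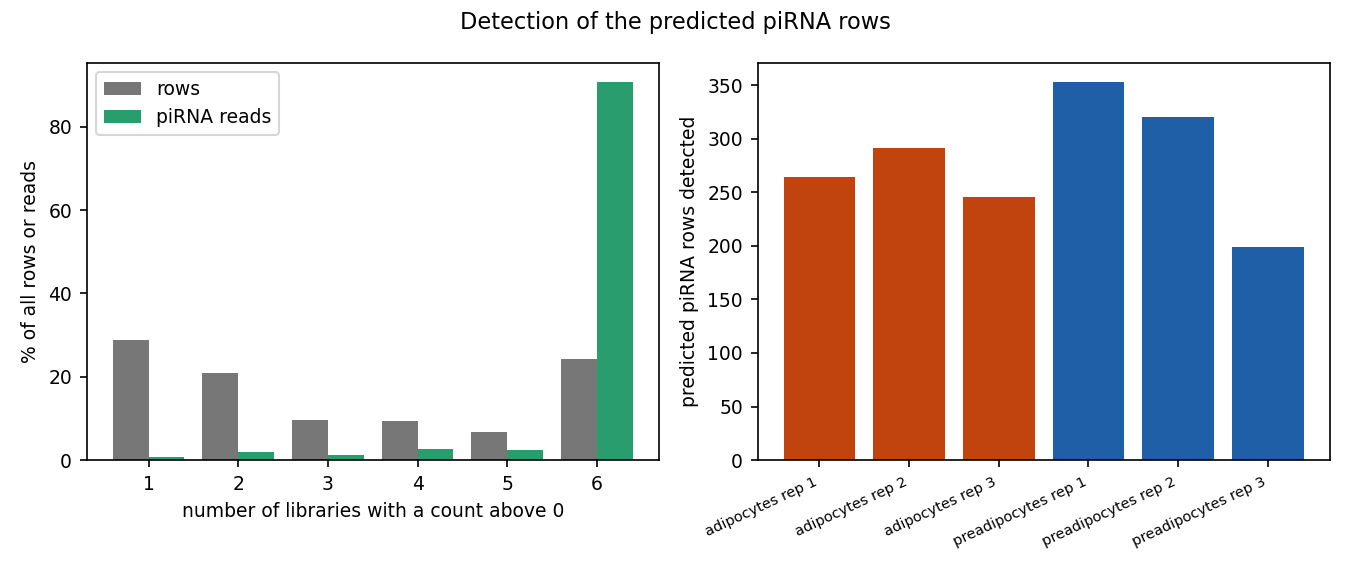
Left, percentage of the 527 predicted piRNA rows and of their reads (vertical axis) by the number of libraries that listed a count. Right, number of rows listed in each library. Rows listed in all 6 libraries were 24.3% of rows and held 90.8% of reads, and preadipocyte replicate 3 listed the fewest rows (199).

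Among the 128 rows listed everywhere, the libraries resembled each other within adipocytes (Pearson's r of log2 counts 0.925 to 0.935 across rows) and between preadipocyte replicates 1 and 2 (0.953). Preadipocyte replicate 3 gave 0.822 and 0.808 with its sister libraries and 0.806 to 0.869 with the adipocyte libraries. These correlations run across rows, which are not independent replicates. The median coefficient of variation of these rows was 25.3% in adipocytes and 41.7% in preadipocytes (CPM, n = 3 libraries each). From here on, CPM are taken over the reads of all rows that name an RNA, after scaling with edgeR's trimmed-mean (TMM) factors.

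The reads were concentrated in a few rows, and more so in preadipocytes. The 10 most abundant rows by mean CPM over all libraries held 49.8%, 54.8% and 53.9% of piRNA reads in adipocyte replicates 1, 2 and 3, and 70.0%, 71.0% and 66.1% in preadipocyte replicates 1, 2 and 3. Every preadipocyte library lay above every adipocyte library (means 52.8% ± 2.65 and 69.0% ± 2.60, n = 3 each, exact permutation p = 0.1, the smallest possible). With each library's own 10 most abundant rows the shares were 52.1% to 58.6% and 69.6% to 72.0%. The number of rows that held 50% of the piRNA reads was 7 to 10 in adipocytes and 3 or 4 in preadipocytes.

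As a share of all piRNA reads, the difference in concentration lay in the 2 most abundant rows. Together novel_pir31 and novel_pir86 held 18.7%, 22.4% and 22.3% of piRNA reads in adipocytes and 38.5%, 38.9% and 45.0% in preadipocytes. The 8 rows that followed held 31.1%, 32.4% and 31.6% in adipocytes and 31.4%, 32.0% and 21.0% in preadipocytes, so these ranges overlapped. Of the reads outside the first 2 rows, these 8 held 38.2%, 41.7% and 40.6% in adipocytes and 51.2%, 52.5% and 38.3% in preadipocytes. By that measure preadipocyte replicates 1 and 2 lay above all adipocyte libraries, and replicate 3 did not. Which of the 2 rows led differed within preadipocytes. In replicates 1 and 2, novel_pir31 took 25.8% and 26.5% and novel_pir86 12.8% and 12.4%, while in replicate 3 they took 8.73% and 36.3%.

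**Figure D3:**
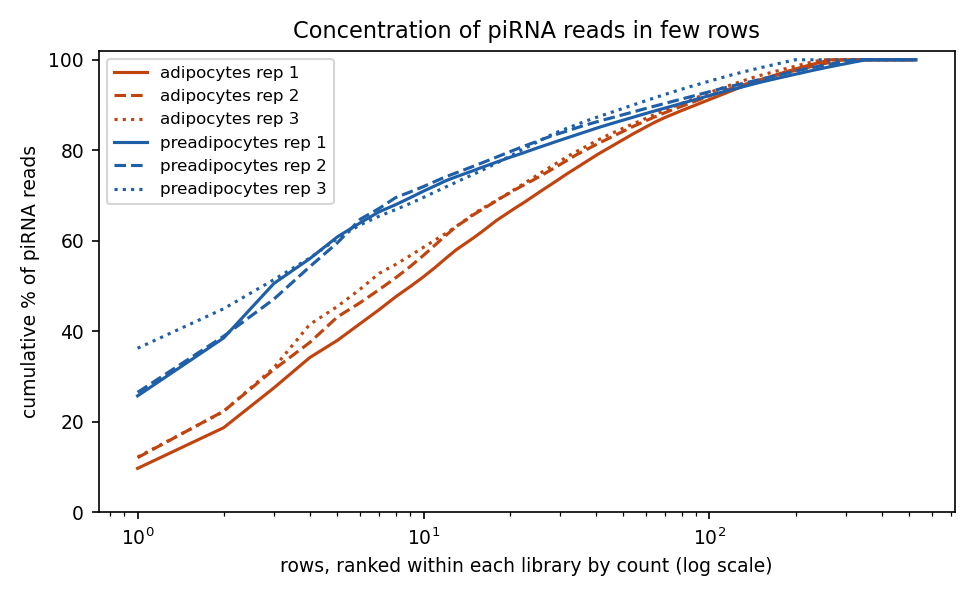
Cumulative percentage of piRNA reads (vertical axis) over rows ranked by count within each library (horizontal axis, log scale), 1 line per library. The preadipocyte lines reach 69.6% to 72.0% at 10 rows and the adipocyte lines 52.1% to 58.6%.

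All 527 rows carried the name of a transposon class, 3 classes in all, and most also that of a family. Long terminal repeat (LTR) elements, mostly endogenous retroviruses, gave 199 rows (37.8%) and 55.9% of the piRNA reads. Long interspersed elements (LINEs), which copy themselves through RNA without such repeats, gave 223 rows (42.3%) and 31.3% of the reads. DNA transposons, which move as DNA and are mostly old in mammals, gave 105 rows (19.9%, of which 15 name no family and 1 is marked as doubtful in the table) and 12.8% of the reads. No row, 0 of 527, was named for a short interspersed element (SINE). How the rows were predicted, and whether from repeats only, is not given in the sources used here, so this makeup may be set by the prediction.

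**Figure D4:**
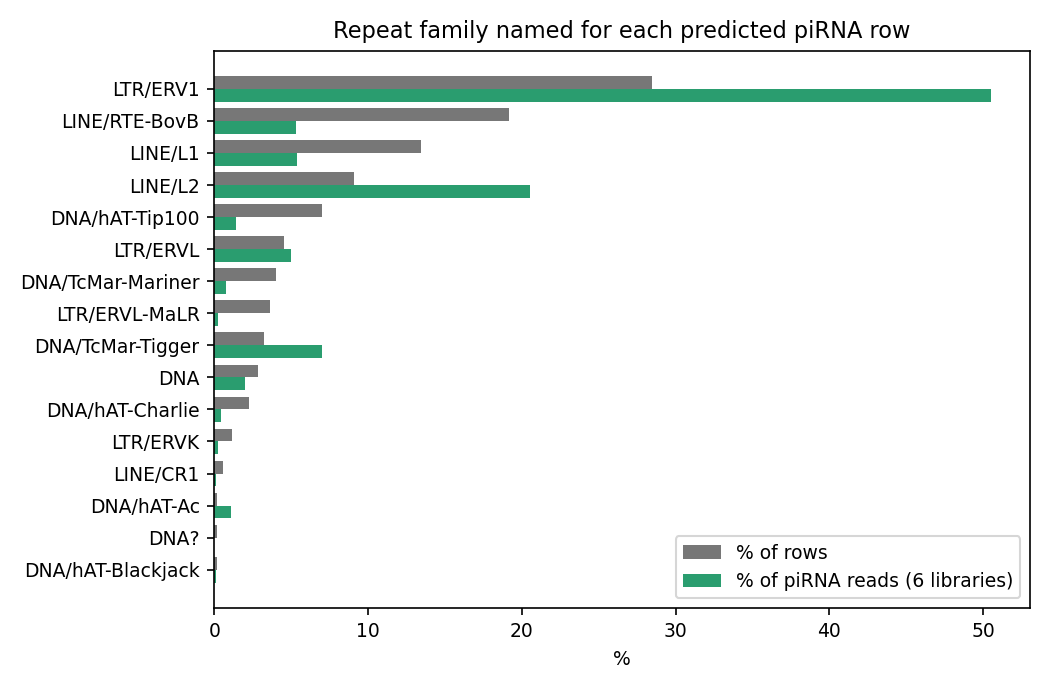
Percentage of the 527 rows and of the piRNA reads of all 6 libraries (horizontal axis) for each repeat family named in the table. The ERV1 family held 28.5% of rows and 50.5% of reads, and BovB 19.2% of rows and 5.31% of reads.

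Rows and reads were distributed differently over families. ERV1, the family of gammaretrovirus-like endogenous retroviruses, had 150 rows and 50.5% of the reads. L2, an ancient and long inactive LINE family, had 48 rows and 20.6% of the reads, of which novel_pir86 alone made 69.7%. Tigger, a DNA transposon family, had 17 rows and 7.02% of the reads. By contrast BovB, a LINE family abundant in ruminant genomes, had 101 rows and 5.31% of the reads, and L1, the LINE family still active in many mammals, 71 rows and 5.38%.

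Between the groups, the share of piRNA reads named for DNA transposons was 15.4%, 18.3% and 17.2% in adipocytes and 7.76%, 10.1% and 12.2% in preadipocytes, without overlap (exact permutation p = 0.1, the smallest possible, n = 3 each). For LTR elements the shares were 51.4%, 50.6% and 55.6% in adipocytes and 65.1%, 63.1% and 34.7% in preadipocytes (exact p = 1). For LINEs they were 33.2%, 31.1% and 27.3% in adipocytes and 27.2%, 26.7% and 53.1% in preadipocytes (exact p = 1). In both of these classes preadipocyte replicate 3 lay on the opposite side of the adipocytes from its sister libraries. Adjusted over the 3 classes (BH), the p of 0.1 became 0.3. As these are shares of 1 total the classes do not vary independently. That total includes novel_pir31 and novel_pir86, an LTR and a LINE row. Together they held 18.7% to 22.4% of it in adipocytes and 38.5% to 45.0% in preadipocytes, which lowers every other share in preadipocytes. The DNA transposon share of the reads outside these 2 rows was not computed, so no difference in DNA transposon rows is drawn from the lack of overlap.

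The 527 rows fell on 225 named intervals, so many rows share their source. Positions are those of the chromosome records in the description column, recognised by name as those of the cattle assembly UMD3.1, which neither the labels nor the table states. Gene annotation of that assembly was not used here, so the genes around the intervals are not given. An interval held 1 row in 140 cases, and 24 intervals with 5 or more rows held 236 rows (44.8%). Interval lengths ran from 28 to 1587 bp. In 37 intervals of at most 60 bp there were 79 rows, up to 8 in 1 interval, and 22 of these intervals held 1 row. The RNA was size-selected to 18 to 30 nt, and 8 of the 37 intervals, with 43 rows, were too short for their rows to lie end to end at 18 nt each. If the interval bounds its rows, some rows of those 8 intervals overlap. The 10 intervals with the most reads held 118 rows and 79.3% of all piRNA reads.

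Chromosome 1 stood out by rows, with 129 rows (24.5%) on 57 intervals and 45.8% of the piRNA reads. Of the predicted miRNA rows, 7 of 108 (6.48%) lay on that chromosome. Chromosome X followed with 52 rows and 4.23% of the reads. The strand given was plus for 245 rows, with 61.9% of the reads, and minus for 282 rows. Only 3 pairs of neighbouring intervals lay within 10000 bp of each other, each with 1 interval per strand. At chr1:79250520-79250581, the L2 interval with 10 rows on the minus strand, an L2 interval with 1 plus-strand row (novel_pir71, 10 reads in preadipocyte replicate 1 only) followed directly. At chr7:39194243-39195001 and chr7:39194979-39195188 the pair overlapped by 23 bp. On chromosome X, 1894 bp separated chrX:34662667-34662698 (8 rows) from chrX:34664593-34664667 (5 rows).

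The 10 most abundant rows were led by LTR sequences. The first, novel_pir31, is assigned to an ERV1 interval at chr1:148149949-148150785 on the plus strand. It had 3481, 4947 and 4343 reads in replicates 1, 2 and 3 of adipocytes, against 17284, 17176 and 2690 in those of preadipocytes. The groups overlapped, since preadipocyte replicate 3 was the lowest library of all. Mean levels were 207 ± 35.7 and 731 ± 523 CPM (SD, n = 3 each). The log2 difference of adipocytes over preadipocytes was -1.82 (SE 0.72), which missed the threshold with an adjusted p of 0.158 in edgeR's quasi-likelihood test (BH over all 948 rows tested). Without preadipocyte replicate 3 it was -2.26 and passed (edgeR BH-adjusted p = 0.0104). With the genome-feature share as a covariate it was -0.50.

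The second, novel_pir86, lies in the L2 interval at chr1:79250520-79250581. It had 3212, 5828 and 3579 reads in adipocytes and 8589, 8031 and 11171 in preadipocytes, so every preadipocyte library lay above every adipocyte library. Mean levels were 203 ± 65.1 and 521 ± 56.0 CPM, and the log2 difference of -1.36 (SE 0.32) missed the threshold (edgeR BH-adjusted p = 0.0660). It passed with DESeq2 (-1.39, BH-adjusted p = 0.00134) and without preadipocyte replicate 3 (-1.23, edgeR BH-adjusted p = 0.0354). Here preadipocyte replicate 3 was the highest library, unlike for novel_pir31.

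Of the next rows, novel_pir382 (ERV1, chr14:25190806-25190849) had 2385, 2724 and 3444 reads in adipocytes and 8092, 5322 and 1330 in preadipocytes. For novel_pir407 (ERVL, another endogenous retrovirus family, chr17:50276829-50277146) the counts were 1113, 1268 and 1417 in adipocytes and 3246, 3348 and 1466 in preadipocytes. Both showed preadipocyte replicates 1 and 2 above all others. Neither passed the test with all libraries (edgeR BH-adjusted p = 0.332 and 0.114), and both did without preadipocyte replicate 3, with log2 differences of -1.45 and -1.63 (edgeR BH-adjusted p = 0.0158 and 0.0145). With DESeq2, novel_pir407 passed with all libraries (-1.38, BH-adjusted p = 0.0169).

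The fourth by level, novel_pir439 (ERV1, chr21:31833318-31833491), was the steadiest of the abundant rows. It had 3151, 4444 and 3379 reads in adipocytes and 3660, 4624 and 1983 in preadipocytes, or 177 ± 31.0 and 201 ± 101 CPM (log2 difference -0.18, SE 0.44, edgeR BH-adjusted p = 0.806). The sign of that small difference turned with the scaling: it was 0.06 with library totals alone. The interval held 17 rows, of which 11 passed the filter on low counts, and its summed reads differed by -0.10 (SE 0.44, edgeR BH-adjusted p = 0.881).

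An ERV1 interval at chr11:30498686-30499299 gave 3 of the 10 most abundant rows, and they did not move alike. The row novel_pir318 had 331, 195 and 192 reads in adipocytes and 2064, 3428 and 93 in preadipocytes (log2 difference -3.29, SE 1.18, edgeR BH-adjusted p = 0.132). Its neighbours novel_pir321 and novel_pir320 differed by -0.47 (SE 0.58) and 0.08 (SE 0.77) and did not pass (edgeR BH-adjusted p = 0.639 and 0.953). Within the interval, novel_pir318 fell to 93 reads in preadipocyte replicate 3, while novel_pir321 had 1652 and 1568 reads in preadipocyte replicates 1 and 2 and 450 in replicate 3. The difference of novel_pir318 passed with DESeq2 (-3.32, BH-adjusted p = 0.00979) and without preadipocyte replicate 3 (-3.79, edgeR BH-adjusted p = 0.0113). With the genome-feature share as a covariate it was -0.58.

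Another 2 of the 10 had higher mean levels in adipocytes without passing. For novel_pir53 (Tigger, chr1:154531797-154531997) the counts were 644, 2863 and 1246 in adipocytes and 958, 1554 and 383 in preadipocytes (0.41, SE 0.74, edgeR BH-adjusted p = 0.746). The value rests on adipocyte replicate 2, without which it was -0.32. For novel_pir314 (L1, chr10:46553176-46553449) they were 1363, 1509 and 517 in adipocytes and 392, 142 and 596 in preadipocytes (1.42, SE 0.58, edgeR BH-adjusted p = 0.171).

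The design compared adipocytes with preadipocytes, and few predicted piRNAs passed the test. The filter on low counts kept 249 of the 527 rows; the 278 left out held 3.07% of the piRNA reads. By edgeR with p-values adjusted over all 948 rows tested (BH), 9 of the 249 passed a threshold of 0.05 (3.61%), 7 higher and 2 lower in adipocytes. Over all 948 rows, 3.48% passed, with 2.64% higher and 0.844% lower, so the share among piRNA rows was near that background. Without adjustment 51 piRNA rows (20.5%) had p below 0.05, against 28.7% of all rows. In CPM the groups did not overlap for 70 piRNA rows (28.1%), 44 higher and 26 lower in adipocytes, against 36.3% of all rows (21.5% higher, 14.8% lower). Of the 249 rows, 15 were listed at 0 throughout a group, 13 with counts in adipocytes only and 2 in preadipocytes only. These 15 passed the filter through 1 group alone and could not overlap, so the split of 44 and 26 partly reflects the filter. Such rows were not counted among all 948. The median log2 difference was -0.05 among the 249 rows and -0.05 among all 948. The medians parted in other fits: they were -0.45 for piRNA rows and -0.05 for all rows without preadipocyte replicate 3, and 0.90 and 0.20 with the genome-feature share as a covariate. The fit without preadipocyte replicate 3 tested 347 piRNA rows, so its median is not over the same rows.

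Only 2 of the 9 rows had counts in both groups, and both are DNA transposon sequences. For novel_pir171, in a hAT-Ac interval at chr3:61093401-61093809 on the minus strand, there were 731, 1117 and 696 reads in adipocytes and 184, 94 and 184 in preadipocytes. Every adipocyte library lay above every preadipocyte library, at 41.0 ± 10.5 and 8.50 ± 2.03 CPM (log2 difference 2.27, SE 0.37, edgeR BH-adjusted p = 0.0371). It was the sole row of its interval and the only row named for the hAT-Ac family. For novel_pir151, in a hAT-Tip100 interval at chr2:68464590-68464926 on the plus strand, there were 204, 341 and 296 reads in adipocytes and 44, 45 and 21 in preadipocytes, again without overlap. In CPM these were 13.6 ± 3.40 and 2.13 ± 0.959, and adipocytes were higher by 2.67 on the log2 scale (SE 0.47; BH-adjusted p = 0.0402 by edgeR).

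The interval of novel_pir151 held 19 rows, and its sum did not follow that row. Summed reads were 471, 656 and 565 in adipocytes and 501, 545 and 248 in preadipocytes (0.08, SE 0.45, edgeR BH-adjusted p = 0.902). Of the 16 rows that passed the filter there, 5 had positive and 11 negative estimates, from -2.62 up. Among the negative ones, novel_pir155, chosen after its values were seen, had 30, 19 and 18 reads in adipocytes and 60, 69 and 38 in preadipocytes (-1.57, edgeR BH-adjusted p = 0.0950).

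The other 7 rows past the threshold were listed at 0 throughout a group. In adipocytes alone, novel_pir97 had 48, 48 and 34 reads, novel_pir474 37, 68 and 37, novel_pir447 33, 32 and 25, novel_pir113 23, 26 and 25, and novel_pir475 18, 31 and 28. In preadipocytes alone, novel_pir486 had 15, 29 and 29 reads and novel_pir190 24, 14 and 18. All 7 were at most 68 reads in any library, close to the limit of 10. Of them, 5 are ERV1 sequences, and novel_pir447 and novel_pir190 are L2 sequences.

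Because a 0 may stand for up to 9 reads, each difference is a lower bound. Taking 9 reads per library in place of 0, novel_pir97 was at least 4.09-fold and novel_pir474 at least 4.46-fold higher in adipocytes, and novel_pir486 at least 3.20-fold and novel_pir190 at least 2.39-fold higher in preadipocytes. The bounds were 2.83-fold for novel_pir447, 2.34-fold for novel_pir113 and 2.43-fold for novel_pir475. Refitted with 9 in place of every 0 of the predicted rows, a setting chosen after seeing the data, 6 piRNA rows passed, all higher in adipocytes (2.41%, against 4.32% of all rows, 3.27% higher and 1.05% lower). Of the 9 rows, 4 were among them: novel_pir171, novel_pir151, novel_pir97 and novel_pir474 (edgeR BH-adjusted p = 0.0291, 0.0291, 0.0291 and 0.0328). The other 5 had edgeR BH-adjusted p-values of 0.0503 to 0.0686. For a row at 0 throughout a group, the refit gave that group 9 in every library, without spread. Such rows had passed the filter through the other group alone, so their p-values do not test the limit. The 2 rows that joined in the refit, novel_pir95 and novel_pir98, lie in the same interval as novel_pir97.

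**Figure D5:**
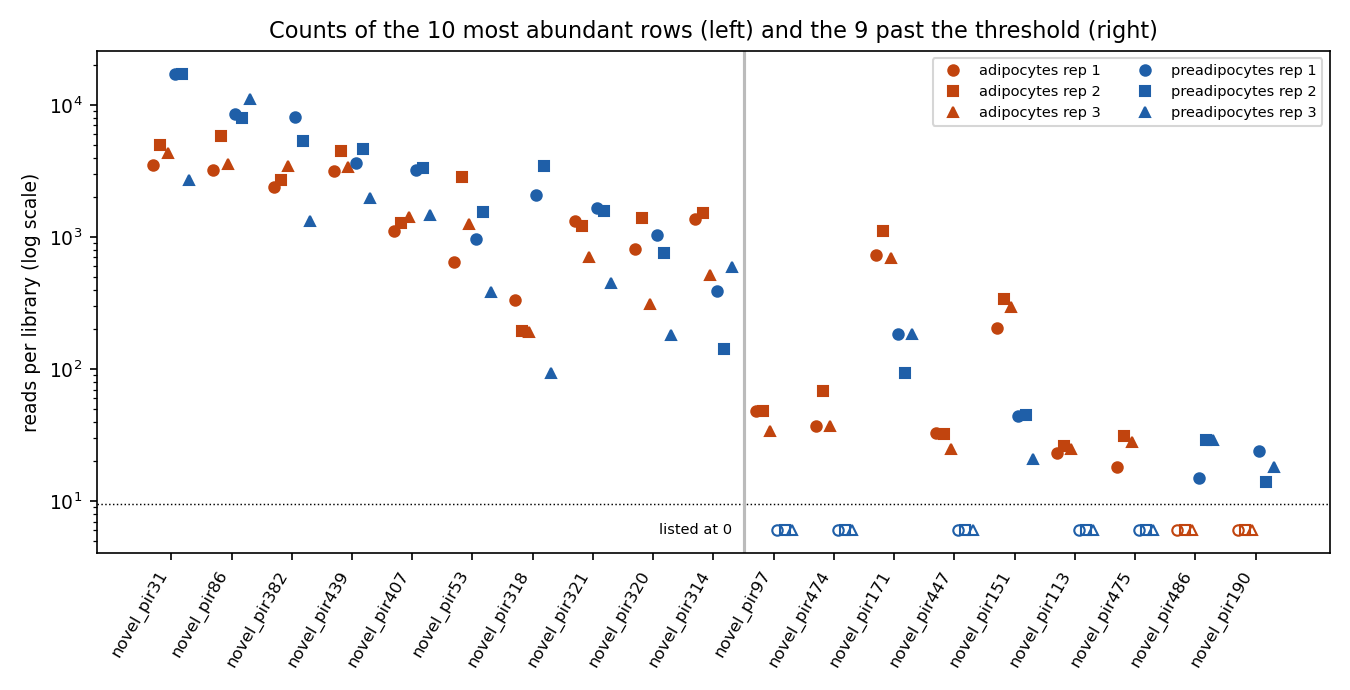
Reads per library (vertical axis, log scale) of the 10 most abundant predicted piRNA rows (left of the grey line) and the 9 past the threshold (right), 1 point per library. Open points below the dotted line are counts listed as 0, which may stand for any count below 10. For novel_pir171 and novel_pir151 all adipocyte points lie above all preadipocyte points.

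That interval, an ERV1 sequence at chr1:146541670-146542309 on the plus strand, was the one with 5 or more rows in which the most rows had positive estimates without a negative one. It, its rows and the other intervals described next were chosen after their values were seen. Its 6 rows all passed the filter and all 6 estimates were positive. Besides novel_pir97, novel_pir98 had 234, 297 and 294 reads in adipocytes and 21, 20 and 0 in preadipocytes, and novel_pir95 had 232, 275 and 266 against 44, 31 and 0. The most abundant, novel_pir100, had 747, 1173 and 1352 reads against 554, 186 and 160. At low counts, novel_pir96 had 13, 19 and 14 reads in adipocytes and 0 in preadipocytes, and novel_pir99 had 11, 14 and 20 against 24, 0 and 0. Summed over the interval there were 1285, 1826 and 1980 reads in adipocytes and 643, 237 and 160 in preadipocytes, without overlap. The summed difference was 2.05 (SE 0.58) and missed the threshold (edgeR BH-adjusted p = 0.0801, sums chosen after seeing the data).

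Other intervals with many rows leaned to preadipocytes without passing. The L1 interval at chr15:44867379-44868406 held 13 rows, of which 6 passed the filter, all with negative estimates. Its summed reads were 130, 182 and 178 in adipocytes and 704, 921 and 193 in preadipocytes, a difference of -2.23 (SE 0.66, edgeR BH-adjusted p = 0.0850). The interval with the most rows, a BovB sequence at chr8:39148414-39149479 with 36 rows, had 17 negative estimates among the 20 rows that passed. Its sums were 2020, 1004 and 1585 in adipocytes and 2251, 2649 and 792 in preadipocytes (-0.64, SE 0.57, edgeR BH-adjusted p = 0.471). In both intervals preadipocyte replicate 3 was the lowest of its group. The L1 interval at chr7:104599581-104600143 rested on 2 libraries, with 1416 and 1037 reads in preadipocyte replicates 1 and 2, 0 in replicate 3, and 10, 0 and 14 in adipocytes.

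With the rows of each interval summed, 106 intervals passed the filter and 7 passed the threshold (6.60%), all 7 higher in adipocytes, against 4.84% of all 805 rows in that fit (3.6% higher, 1.24% lower). Of the 7, the hAT-Ac interval of novel_pir171 had counts in both groups, and the other 6 were listed at 0 in every preadipocyte library with 37 to 219 reads in all adipocyte libraries together. The interval of novel_pir474 and novel_pir475 at chr26:40070968-40071560 was among them, with 55, 99 and 65 reads in adipocytes. These 6 intervals passed the filter through adipocytes alone. As the limit of 10 reads holds for each row, a summed 0 may stand for more than 9 reads where an interval has several rows. The sums were not refitted with that limit.

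The count of 9 changed with single libraries. It was 0 without adipocyte replicate 1, 2 or 3 or without preadipocyte replicate 1 or 2, although the differences stayed near their size: with 1 library left out, that of novel_pir171 ran from 2.01 to 2.41 and that of novel_pir151 from 2.40 to 2.98. Without preadipocyte replicate 3 it was 119 of 347 rows (34.3%), against 31.5% of all rows in that fit, and all 9 were among them. By direction, 29 piRNA rows were higher in adipocytes (8.36%, against 13.9% of all rows) and 90 lower (25.9%, against 17.6%). In that fit a row could pass the filter through preadipocyte replicates 1 and 2 alone, and 64 piRNA rows were listed in only those libraries. How many of the 90 were such rows was not counted, so the 90 do not measure a general shift of piRNA rows. With DESeq2 the count was 34 of 249 (13.7%, 25 higher and 9 lower), against 20.6% of all rows (11.8% higher, 8.76% lower), again with all 9. Of these 9, the 7 listed at 0 throughout a group rest on the same listed zeros in both tests. DESeq2 was not rerun with 9 in place of 0.

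Beyond the rows past the threshold, 5 of the 7 listed in all preadipocyte and no adipocyte libraries had too few reads for the filter. The 3 with the most reads were novel_pir354 (L1, chr12:24475090-24475472) with 42, 19 and 11 reads, novel_pir290 (ERV1, chromosome 9) with 21, 20 and 10, and novel_pir139 (L1, chromosome 2) with 10, 20 and 19. The other 2, novel_pir157 and novel_pir88, named after their values were seen, had 10 to 15 reads in each preadipocyte library. No row with a mean of at least 10 reads had over 90% of its reads in 1 library.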

How the data were processed

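Small RNA of 18 to 30 nt was sequenced in 3 adipocyte and 3 preadipocyte libraries. For each row and library the deposited table holds 2 values, named count and TPM per the file headers. The deposited count is in whole reads, without normalization. For all piRNA rows the TPM deposited by the authors equalled the count over 1 constant per library (tolerance 0.006), with 0 written as 0.001. The submitters' processing notes name Bowtie2. How piRNAs were predicted is not given in the sources used here, and an assembly is inferred from the names of the chromosome records in the table.

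Columns were matched to samples by title and groups taken from the labelled cell type. All rows that name an RNA were tested with edgeR 4.0.16 in R 4.3.3 (TMM, filterByExpr, glmQLFit, glmQLFTest, group only, two-sided, BH adjustment over 948 rows). The 4 genome-feature rows named no RNA and stayed out, with 5.29% to 18.9% of the table. Alternatives used DESeq2 1.42.0, other scalings, filters, a replicate block and left-out libraries. Single values were compared with exact permutation tests in SciPy 1.17.1. The edgeR step was run on simulated counts of 834 rows with known changes. At the threshold of 0.05 it called 1 of 62 rows changed 2-fold, 8 of 54 changed 4-fold and 38 of 62 changed 8-fold. Of 656 unchanged rows it called 0. Most changes of 2-fold or 4-fold were thus missed there. The simulated counts were drawn around 1 mean per row with the trend of spread fitted by edgeR, so no library stood apart as preadipocyte replicate 3 did. Changed rows came from all RNA classes, and only piRNA counts below 10 were set to 0. Calls were not split by class, so these rates need not hold for the piRNA rows here.

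Rows named are the 10 most abundant, up to 10 past the threshold each way, up to 5 each way listed in 1 group only and up to 5 with over 90% of reads in 1 library. Others were chosen after their values were seen. The members and lists were chosen with earlier results of these data known. The labels mention no molecular identifiers, so counts may not be independent molecules.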

Additional observations from a re-analysis of the deposited data

How the results depend on the processing

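The count of 9 piRNA rows past the threshold in edgeR's test was the same with upper-quartile and RLE factors. It was 34 with DESeq2, 14 with library totals alone, 21 with the totals implied by the deposited TPM, 17 with piRNA rows alone, 2 with a count above 0 required in every library, and 0 without a filter on low counts, where 2209 rows were tested (141 piRNA rows then had an unadjusted p below 0.05). Leaving out 1 library gave 0 to 119 (119 without preadipocyte replicate 3 and 0 without each other library, where 41 to 59 piRNA rows had an unadjusted p below 0.05). The replicate numbers were not taken as pairs: deviations of same-numbered libraries correlated at -0.01, -0.04 and 0.16 over all rows tested and at 0.05, 0.17 and 0.29 over piRNA rows, and not every library correlated best with its own number. With a replicate block the count was 0, with 38 piRNA rows at an unadjusted p below 0.05. The balance of 7 higher and 2 lower was 12 and 2 with library totals alone and 18 and 3 with the implied totals, where the median of all rows moved from -0.05 to 0.22 and 0.24. It was 7 and 0 with the genome-feature share as a covariate, where only 4 of the 9 rows were among the 7 (novel_pir151, novel_pir171, novel_pir474 and novel_pir97). It was 6 and 0 with a mean of at least 10 counts and with 9 in place of 0, and 25 and 9 with DESeq2. The cause of these changes was not tested, beyond the number of rows or libraries each setting leaves.

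Signs turned for 5 of the abundant rows, none of which had passed. The difference of novel_pir439 was 0.0626 with library totals alone, 0.11 with the implied totals, 0.32 with the covariate, and -0.44 to 0.25 with 1 library left out (positive without preadipocyte replicate 2). That of novel_pir320 was -0.056 with upper-quartile factors and -0.46 to 0.505 with 1 library left out (-0.46 without adipocyte replicate 2, -0.34 without preadipocyte replicate 3). With the covariate, novel_pir382 was at 0.0723 and novel_pir321 at 0.395, while novel_pir31 moved from -1.82 to -0.50 and novel_pir318 from -3.29 to -0.58. For novel_pir53, leaving out 1 library gave -0.32 (without adipocyte replicate 2) to 1.10.

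The difference in piRNA rows detected was -23.7 and ran from -69.5 to 7.5 with 1 library left out. Without the 2 libraries farthest from the median, r with exon, repeat, intron and intergenic reads was 0.992, 0.979, 0.9997 and 0.848 over 4 libraries, too few to pass. The difference in piRNA share kept its sign with 1 library left out. It also did with totals that left out the genome-feature rows or were implied by the deposited TPM. Without novel_pir31 and novel_pir86 the sign turned, at mean shares of 0.152% in adipocytes and 0.148% in preadipocytes. Per 1000 genome-feature reads it turned as well (18.7 and 18.6). The difference in the share of the 10 most abundant rows kept its sign with 1 library left out and for the top 1 and top 50 rows. The smallest listed count was 10, so a 0 may be a limit of listing, which was not tested against depth.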

Other observations

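Rows of other families were mostly low. ERVK, an endogenous retrovirus family with young members in many mammals, had 6 rows on 5 intervals and 0.476%, 0.451% and 0.296% of piRNA reads in adipocyte replicates 1, 2 and 3, against 0.0760%, 0.0324% and 0.114% in preadipocytes. The groups did not overlap (exact permutation p = 0.1, the smallest possible, not adjusted over families). None of the 6 rows was listed in all 6 libraries. Of the ERVK reads, novel_pir138 made 70.5%, and it was listed at 0 in preadipocyte replicate 2. The ERVL family took 4.09%, 3.68% and 5.01% in adipocytes and 5.47%, 5.82% and 5.16% in preadipocytes, of which novel_pir407 made 84.5% over all libraries. CR1, an old LINE family, had 3 rows and 0.0847% of the reads.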
